A study of Drosophila melanogaster with 3 samples.

Results

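The genes examined were 10 Drosophila melanogaster genes that act when a neural stem cell, the neuroblast, divides asymmetrically: numb, pros, brat, mira, pon, insc, baz, aPKC, l(2)gl and dpn. They were taken by name from the 13945 protein-coding genes annotated on the 6 main chromosome arms. The peaks counted for each were those whose summit had the gene's annotated transcription start as the nearest start, or lay inside its gene body. By this rule 4 of the 10 genes, numb, baz, brat and pros, held 6 of the 3688 peaks of the thresholded ("optimal") list. In the much longer list of 30000 peaks from the pooled replicates, all 10 genes held a peak, 100 peaks in all. Over all coding genes, 19.9% held a peak of the optimal list and 62.6% one of the pooled list. Of the coding genes of at least 10 kb, 44.6% held an optimal peak.

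The peaks came from chromatin immunoprecipitation with sequencing (ChIP-seq) on CG4328-GFP flies, a stable transgenic line in which CG4328, which encodes a LIM-homeodomain transcription factor, is fused at its C-terminal end to GFP. Chromatin of whole mixed-sex embryos aged 8 to 24 h was sonicated to 200 to 800 bp and precipitated with antibody to GFP. The labels give 3 biological replicates of this 1 group, and no control sample was analysed here, so every value below describes the 1 group and no test was made. What drives expression of the tagged protein is not given in the sources used here. Neuroblasts are a minority of the cells of a whole embryo, no expression was measured, and a peak bound in few cells cannot be told apart from one bound weakly in many.

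When a neuroblast divides, an apical complex built around Bazooka (baz) and atypical protein kinase C (aPKC) polarises the cell cortex, and Inscuteable (insc) links that complex to the spindle. Lethal (2) giant larvae, from l(2)gl, acts with aPKC to restrict the fate determinants Numb, Prospero (pros) and Brain tumor (brat) to the opposite, basal side, where the adaptors Miranda (mira) and Partner of Numb (pon) carry them. The determinants enter the smaller daughter cell, which differentiates, while the neuroblast keeps dividing and expresses Deadpan (dpn), a bHLH repressor.

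The peak sequences of numb and brat are shown because these determinant genes held 4 of the 6 peaks, all outside annotated UTRs. The windows hold the 201 bases centred on the summit, except that the window of the brat peak ranked 2663 was cut to 166 bases where the transcribed part of brat begins. They are from the plus strand of the release 6 genome (dm6, RefSeq sequence), the strand that both genes are read from. Their positions, in the order shown, are chr2L:9449588-9449788, chr2L:19165059-19165259, chr2L:19141799-19141999 and chr2L:19133650-19133815. Capitals mark matches to the searched motifs that are named further on, a CAGCTG, no match, a TTTAAA and a TATCGATA.
numb peak ranked 245: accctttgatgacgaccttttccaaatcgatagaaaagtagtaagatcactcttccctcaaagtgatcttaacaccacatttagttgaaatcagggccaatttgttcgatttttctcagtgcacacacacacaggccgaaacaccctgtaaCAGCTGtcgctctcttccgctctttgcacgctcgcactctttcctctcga
brat peak ranked 294: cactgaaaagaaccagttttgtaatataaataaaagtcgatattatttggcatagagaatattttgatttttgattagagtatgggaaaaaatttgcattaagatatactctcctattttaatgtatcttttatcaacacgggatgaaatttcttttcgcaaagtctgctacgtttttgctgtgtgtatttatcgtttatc
brat peak ranked 2161: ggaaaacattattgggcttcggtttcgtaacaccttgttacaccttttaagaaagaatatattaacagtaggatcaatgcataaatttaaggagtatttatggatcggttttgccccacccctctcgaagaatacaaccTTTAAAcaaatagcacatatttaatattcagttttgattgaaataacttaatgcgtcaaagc
brat peak ranked 2663: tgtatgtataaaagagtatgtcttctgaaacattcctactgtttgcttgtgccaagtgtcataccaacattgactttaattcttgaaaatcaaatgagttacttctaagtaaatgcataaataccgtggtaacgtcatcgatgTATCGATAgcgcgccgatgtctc

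Numb is a membrane-associated inhibitor of Notch signalling that is inherited by 1 daughter cell. The gene (FBgn0002973, 2L 9437469 to 9464184, plus strand, 26.7 kb) is annotated with 3 transcripts from 2 starts. Its optimal peak (2L 9449545 to 9449767) ranked 245, where rank 1 is the peak with the highest signal value the authors gave. The same peak ranked 248, 267 and 168 in the lists of replicates 1, 2 and 3, out of 30000 peaks each. The 3 ranks were close together, the highest in replicate 3. Its replicate summits lay 0, 1 and -4 bp from the optimal summit. The summit was 142 bp upstream of the internal start shared by 2 transcripts and 12.2 kb into the gene, inside intron 2 of the long transcript. The start of the long transcript held a far weaker peak, at rank 6937 of the pooled list, with ranks of 11143, 12070 and 5342 in the replicates.

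Prospero is a homeodomain transcription factor that enters the nucleus of the differentiating daughter. The gene (FBgn0004595, 3R 11328480 to 11407627, plus strand, 79.1 kb) is the longest of the 10. Its optimal peak (3R 11392912 to 11393091) was the narrowest of the 6, 180 bp wide, and ranked 1301. Its ranks were 1273, 2213 and 817 in replicates 1, 2 and 3, so replicate 3 placed it highest and replicate 2 lowest, and all were inside the top 3688. The summits lay 4, -4 and -9 bp from the optimal summit. The peak was not near a pros start: the summit lay in the last exon of all 6 transcripts, in the 3′ UTR. It was 189 bp before the most upstream annotated transcript end, which 2 transcripts share. It was 20219 bp from the nearest pros start, and the nearest start of any coding gene was that of mRpL40, a mitochondrial ribosomal protein gene, at 14911 bp. Of all 3688 optimal summits, 58 (1.57%) lay in an annotated 3′ UTR.

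Brain tumor is a translational repressor that limits growth of the daughter cell. The gene (FBgn0010300, 2L 19133816 to 19179758, plus strand, 45.9 kb) has 5 transcripts from 3 starts, and was the only one of the 10 with more than 1 optimal peak. Of the 2779 coding genes with an optimal peak, 301 had at least 3, as brat did.

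The highest brat peak (2L 19165030 to 19165291) ranked 294, and 240, 259 and 430 in replicates 1, 2 and 3. Replicate 3 placed it lowest, still within the highest 1.43% of its list. Its summit was 708 bp upstream of the most downstream brat start, which serves 1 transcript, and 31.3 kb into the gene, within an intron of the other 4.

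The other brat peaks ranked lower. The peak at 2L 19141674 to 19142123 ranked 2161, and 1811, 1874 and 3459 in the replicates. It lay in intron 1 of the 2 long transcripts, 8083 bp downstream of their start, and the nearest coding start was that of Polr1D, an RNA polymerase subunit gene, at 6666 bp. The peak at 2L 19133525 to 19133974 ranked 2663, 66 bp upstream of the most upstream brat start. Its replicate ranks were 1665, 5268 and 2921, which put it in the top 3688 of replicates 1 and 3 and outside that of replicate 2. This summit also lay within Polr1D, which overlaps the brat start on the opposite strand, and a coding exon that 1 of 3 Polr1D transcripts uses covers the last 42 bases of the window shown above. Peaks near the middle brat start reached only rank 5475 in the pooled list, 752 bp downstream of it, with replicate ranks of 5737, 6621 and 2393.

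**Figure D1:**
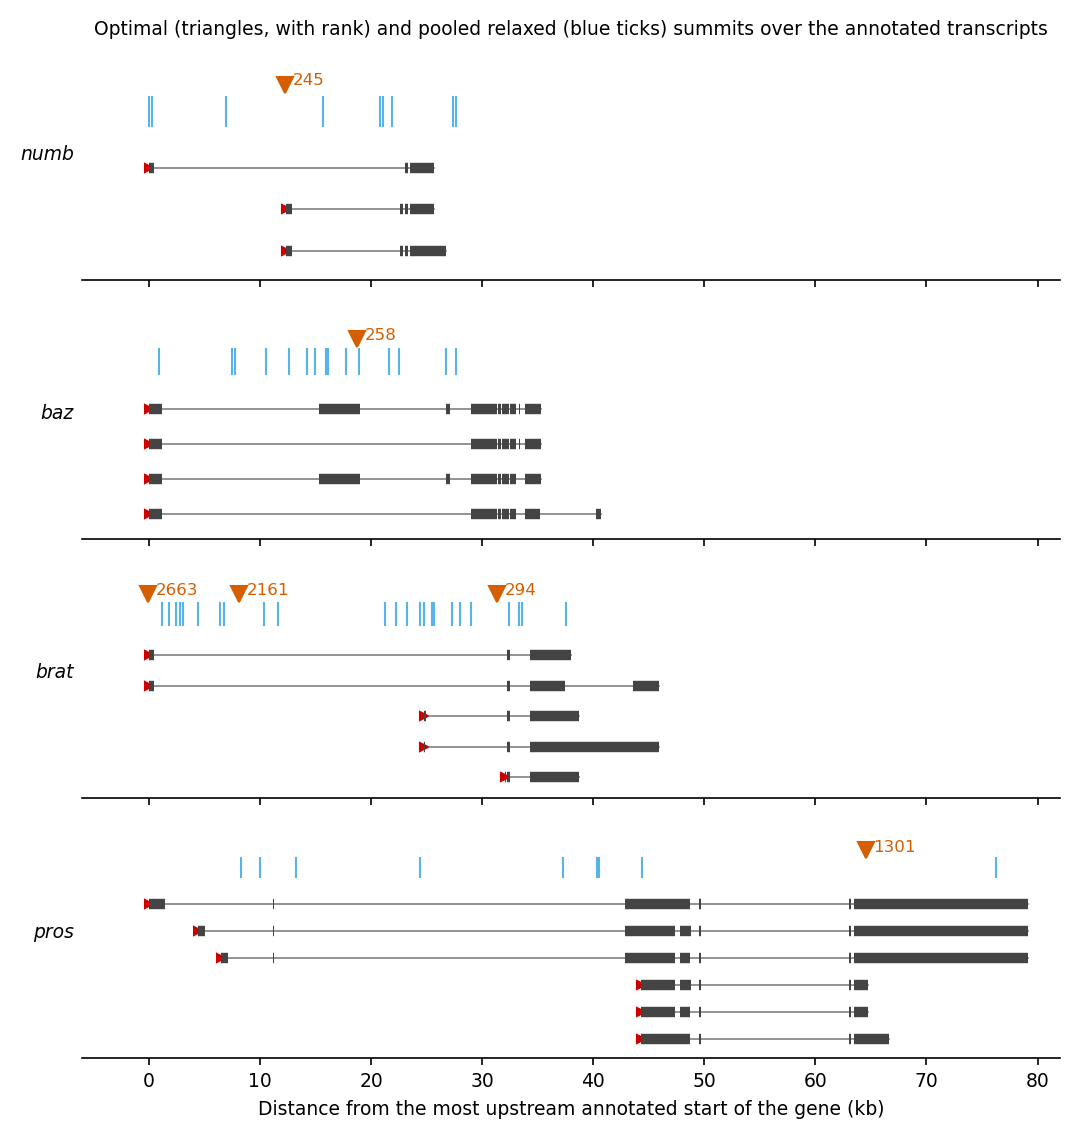
Positions of peak summits along numb, baz, brat and pros, with the distance from the most upstream annotated start in kb on the horizontal axis. Orange triangles are optimal summits with their rank, blue ticks are other summits of the pooled list, grey boxes are exons and red arrowheads are transcript starts. The numb peak (rank 245) sits at an internal start and the baz peak (rank 258) over an exon that 2 of 4 transcripts use. The pros peak (rank 1301) sits near the most upstream transcript end, which 2 transcripts share.

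The basal adaptors held no optimal peak. Miranda is a coiled-coil cargo protein that binds Prospero and Brat, and its gene (FBgn0021776, 3R 19931799 to 19935120, minus strand, 3.3 kb) lies wholly within Hs6st. The best mira peak ranked 18035 in the pooled list and 16180 and 5727 in replicates 2 and 3, and replicate 1 listed none. The peak of replicate 2 was 174 bp upstream of the start, while that of replicate 3 was 3373 bp upstream, so they were not the same place. The gene of Partner of Numb (FBgn0025739, X 4636318 to 4639112, plus strand, 2.8 kb) had 1 pooled peak, at rank 28026, the lowest of the 10 best pooled ranks. That summit was 2627 bp downstream of the pon start, and the start of CG3081 was nearer. The best ranks of pon were 20261, 12568 and 16129 in the replicates, from 3 different positions in or near the gene.

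Among the apical genes, baz held an optimal peak and insc and aPKC did not. Bazooka, the fly Par-3 scaffold, is encoded by a gene (FBgn0000163, X 17160006 to 17200728, plus strand, 40.7 kb) whose 4 transcripts share a start. Its optimal peak (X 17178527 to 17178827) ranked 258, and 254, 213 and 353 in replicates 1, 2 and 3. All 3 ranks lay within the range seen for the highest brat peak and the numb peak, 168 to 430. The summit was 18.7 kb downstream of the start, in a 3624 bp exon of the 5′ UTR that 2 transcripts include, 264 bp before that exon ends. The other 2 transcripts pass over it with an intron of 27800 bp. Of all optimal summits, 420 (11.4%) lay in an annotated 5′ UTR. When non-coding genes were counted as well, the nearest start was that of lncRNA:CR44026, 4536 bp away.

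Inscuteable is the adaptor between the polarity complex and the spindle machinery. Its gene (FBgn0011674, 2R 20821262 to 20836028, minus strand, 14.8 kb) held the member peak just outside the optimal list: rank 3812 with a signal value of 128.0, where the lowest optimal peak had 130.9. The member peak just inside was the brat peak ranked 2663, with a signal value of 161.5. The insc peak, 2056 bp upstream of the start, ranked 5352, 3679 and 4137 in replicates 1, 2 and 3, so replicate 2 alone placed it in its top 3688. The best peak in or near insc differed by replicate. In replicate 1 it was 408 bp upstream of the start at rank 3763, and in replicate 3 it was 4894 bp inside the gene at rank 2443. None of these peaks can be assigned to insc alone: sktl, a phosphatidylinositol kinase gene, lies within insc and shares its annotated start, so the upstream peaks were equally near to both genes.

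The kinase gene aPKC (FBgn0261854, 2R 14944458 to 14962969, minus strand, 18.5 kb) had its best pooled peak at rank 7149, 59 bp upstream of the most upstream of its 4 starts. That peak overlapped rank 16043 of replicate 1 and rank 3196 of replicate 2, and no peak of replicate 3. The best aPKC ranks by replicate were 7850, 3196 and 8024, with replicate 2 far above the others. An optimal peak (rank 2598) lay 1.3 kb upstream of the gene, nearest to the start of ckn.

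The gene of Lethal (2) giant larvae, a cortical tumour suppressor (FBgn0002121, 2L 9839 to 21376, minus strand, 11.5 kb), had its best pooled peak at rank 7882, 823 bp upstream of the start. That summit lay outside the gene body, in an annotated exon of another coding gene. The best ranks of l(2)gl were 3821, 11543 and 3914, in the order of the replicates. Replicates 1 and 2 placed the best peak upstream of the start, and replicate 3 placed it 10752 bp from the nearest start, past the other end of the gene. The nearest optimal summit was 45.4 kb away. The gene of Deadpan (FBgn0010109, 2R 8228971 to 8232330, minus strand, 3.4 kb) held 1 pooled peak, at rank 23533, 373 bp downstream of its start. Replicates 1 and 3 listed it at ranks 26148 and 17274, and replicate 2 did not list it. An optimal peak of rank 764 lay 9.3 kb upstream of dpn, with pnut as its nearest start.

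Ordered by best pooled rank, the genes ran numb, baz, brat, pros, insc, aPKC, l(2)gl, mira, dpn and pon. The ranks of numb, baz and brat overlapped across replicates, so their order among themselves is not set. The pros peak was below all of them in every replicate. The ranges of pros (817 to 2213) and insc (2443 to 3763) did not overlap, although the insc values came from different positions. Below that, the replicate ranges of neighbours overlapped from insc to aPKC, l(2)gl and mira, and again from dpn to pon. Those of mira (5727 and 16180) and dpn (17274 and 26148) did not, with 2 values each.

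**Figure D2:**
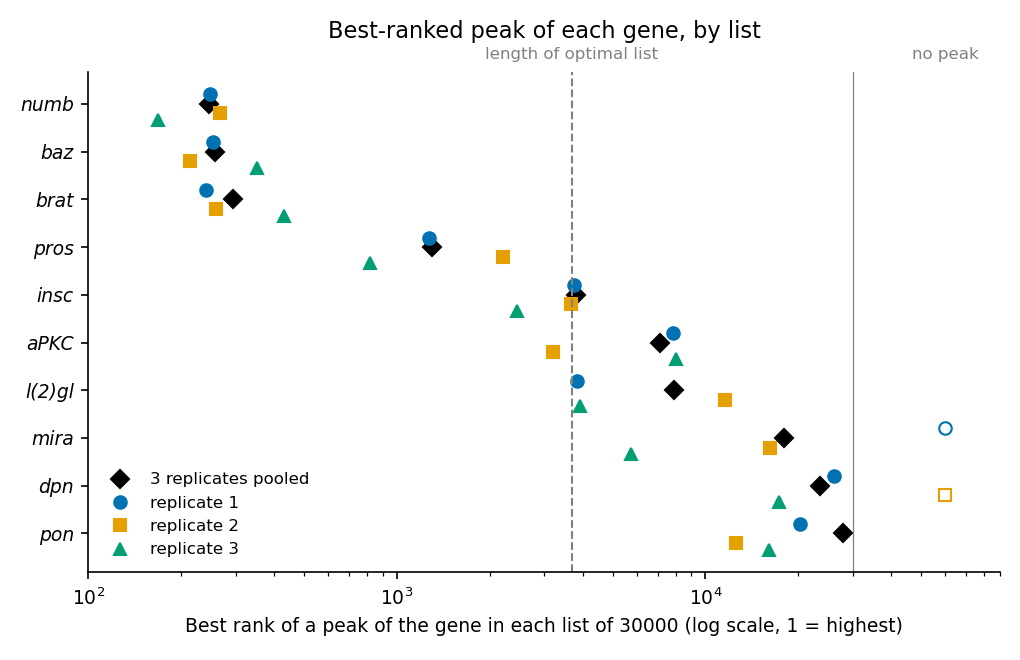
Best rank of any peak of each gene, on a log axis where 1 is the highest of 30000, in the pooled list (black diamonds) and in each replicate (coloured symbols). Open symbols at the right mark lists without a peak (mira in replicate 1, dpn in replicate 2), and the dashed line marks rank 3688, the length of the optimal list. The points of numb, baz and brat overlap between 168 and 430, and those of the 6 genes without an optimal peak lie near or beyond the dashed line, except insc in replicate 3 and aPKC in replicate 2.

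Of the 6 optimal peaks, 5 overlapped a top-3688 peak in all 3 replicates, and the brat peak ranked 2663 did so in 2. Over all optimal peaks, 2072 (56.2%) had the support of all 3 replicates. All 6 peaks overlapped some peak of every whole replicate list, as did 85.6% of all optimal peaks. Of the 100 member peaks in the whole pooled list, 32 (32.0%) were found in all 3 replicates, a share near the 36.2% of all pooled peaks. The number of brat peaks fell from 29 and 34 in replicates 1 and 2 to 8 in replicate 3, while pros had 12 and 10 against 24.

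**Figure D3:**
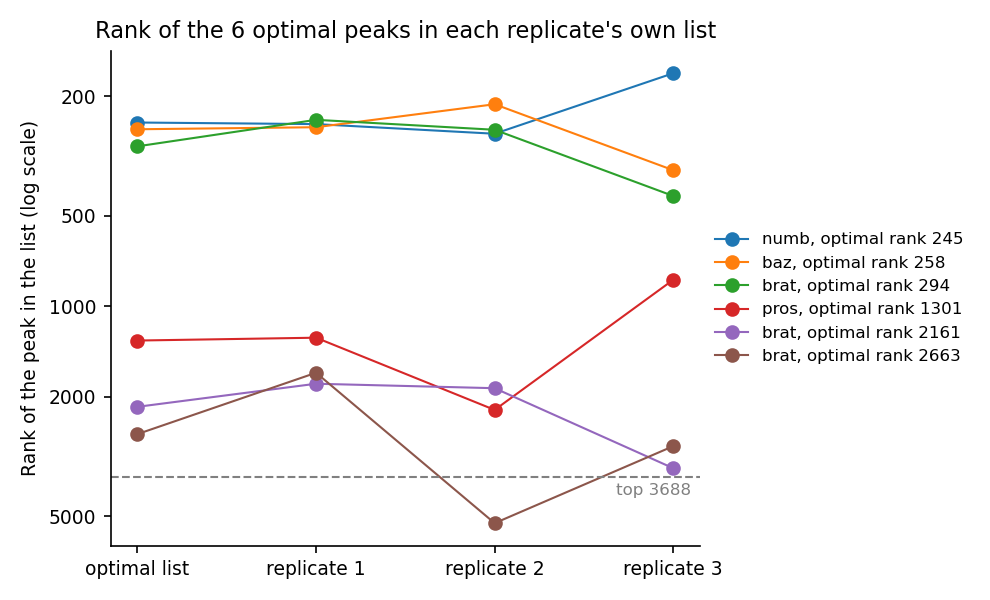
Rank of each of the 6 optimal peaks in the optimal list and in the list of each replicate (log axis, high ranks at the top, lines join the same peak). The dashed line marks rank 3688. The peaks ranked 245, 258 and 294 stay together at the top, and the brat peak ranked 2663 is the only one to pass the dashed line, in replicate 2 (rank 5268).

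The 4 genes with an optimal peak were set against all 13945 coding genes. As the gene with the nearest start, 3 of 10 members (numb, baz and brat) had an optimal peak, against 18.4% of coding genes. With a summit in the gene body, 4 of 10 did, against 10.7%, and by either criterion 4 of 10 did, against 19.9%. All 4 had a peak that all 3 replicates supported, which 12.3% of coding genes had. The share of coding genes with a peak rose with the length of the gene, and the 4 genes are the 4 longest of the 10. Among genes of at least 10 kb, 4 of 7 members had an optimal peak, against 44.6% of coding genes of that length. A difference of that size between 7 genes and the background gives no reading of the 10 genes as a group.

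In the top 3688 peaks of replicate 1, 4 members had a peak, against 19.6% of coding genes. In replicate 2 the count was 6, with aPKC and insc added, against 19.3%, and in replicate 3 it was 5, with insc added, against 20.1%. In the whole pooled list 10 of 10 members had a peak, against 62.6% of coding genes. In the whole lists of replicates 1, 2 and 3 it was 9, 9 and 10 of 10, against 64.3%, 62.3% and 62.9%. These background shares cover coding genes of all lengths, whereas 7 of the 10 members are at least 10 kb long. No share by length was taken for these lists, so the counts give no reading of the 10 genes as a group. A summit in a member's body occurred 0.332 times per kb in replicates 1 and 2 and 0.215 times in replicate 3. The same densities over all coding genes were 0.238, 0.240 and 0.222. Of the 82 member summits in replicate 1 and the 82 in replicate 2, 28 and 33 lay in brat, whose own density was 0.609, 0.718 and 0.152 per kb in the replicates. In the optimal list the density was 0.020 per kb for the members and 0.025 for all coding genes.

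**Figure D4:**
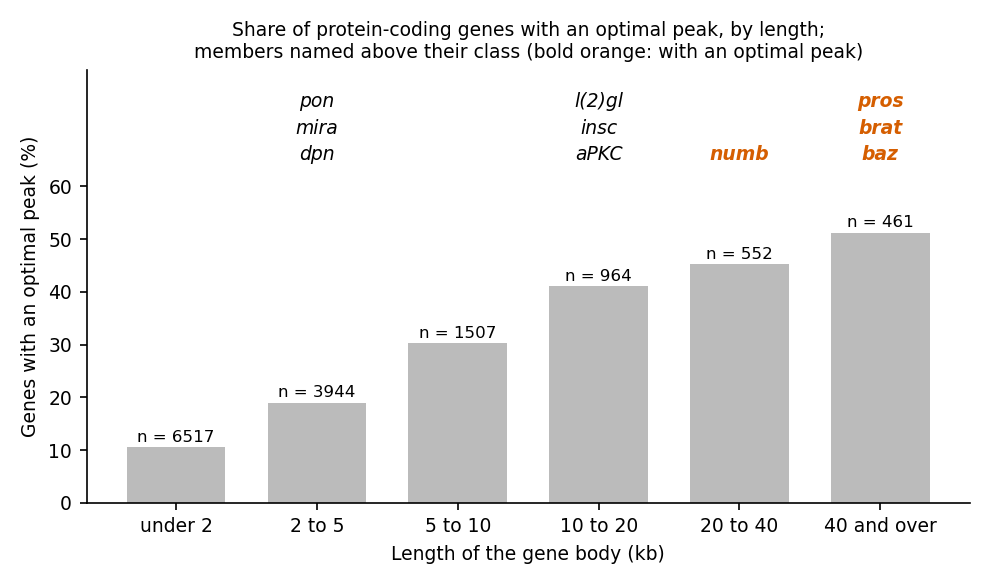
Percentage of protein-coding genes with an optimal peak (nearest start or gene body) by length of the gene body in kb, with the number of genes above each bar. The share rises from 10.6% under 2 kb to 51.2% at 40 kb and over. The genes named above the bars are the 10 members in their length class, those in orange having an optimal peak.

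By position, the 6 peaks are too few to read a share from. There were 2 in the promoter class (within 500 bp of a start), 2 in exons and 2 in introns. Of all optimal peaks 53.1% were promoter, 32.3% intron, 12.8% intergenic and 1.68% (62 peaks) exon. The peaks of numb, baz and pros and the highest brat peak were narrower than the 450 bp that is the median of the list, at 223, 301, 180 and 262 bp. Of all optimal peaks 22.8% were narrower than that, and 93.2% of the highest 10% were. The same 4 peaks had the highest −log10 q value the authors gave in that list, 3.46, which 39.4% of optimal peaks shared.

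The 201 bp around each summit were searched on both strands for 7 short motifs and for TTTAAA, a reference made of A and T alone. TATCGATA, the DNA replication-related element, occurred at the brat peak ranked 2663, 43 bp from its summit and inside the Polr1D coding exon, as the sequence above shows. It was present at 3.42% of optimal peaks and at 1.26% of the 25262 pooled peaks that overlap no optimal peak. CAGCTG, an E-box bound by proneural bHLH proteins, occurred at the numb peak, 51 bp from its summit, and at 9.9% of optimal and 9.32% of the other peaks.

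GAGAGAG, the GAGA factor element, occurred at the baz peak, 94 bp from its summit, and as a run of 9 overlapping matches at the pros peak, 68 to 84 bp from its summit. It was found at 5.34% of optimal and 3.96% of the other peaks. TTTAAA occurred at the pros peak and the brat peak ranked 2161, and at 30.3% of optimal and 18.4% of the other peaks. TAATTA, a core that many homeodomain proteins bind, was in none of the 6 windows, and was in 18% of optimal and 12.8% of the other windows. GGTCACACT, CACGTG and CAGGTAG were in none of the 6, and in 1.38%, 2.58% and 0.868% of optimal windows. The GC content of the 6 windows ranged from 28.4% at the baz peak and the highest brat peak to 48.3% at the pros peak, around the median of 36.3% for all optimal windows. The windows of the other peaks had a median of 41.8%, and motif shares were not adjusted for this difference in base composition.

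A further 38 genes, chosen by name as of the same pathway or related to its genes, were examined by the same rule. Of these, 12 had an optimal peak (31.6%, against 19.9% of coding genes), and 9 had one that all 3 replicates supported, which 12.3% of coding genes had. Among those of at least 10 kb, 8 of 17 had an optimal peak, a share near the background of 44.6% for genes of that length.

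By role, genes of cortical polarity had 4 of 6, against 19.9% of coding genes, and 3 of the 6 are at least 20 kb long. These were 2 apical genes, cno and Rap1, and 2 basolateral ones. The highest was at cno, the actin-binding Canoe, at rank 159, with ranks of 112, 165 and 362 in the replicates. Rap1, its small GTPase partner, had a peak at rank 1409, and the highest peaks of the basolateral scaffolds dlg1 and scrib ranked 1907 and 2074. Each of these 4 peaks was in the top 3688 of every replicate. In all, cno and dlg1 held 2 optimal peaks each and scrib held 3. No optimal peak was assigned to Cdc42 or par-6. However, an optimal peak of rank 755, nearer to the start of CG8188, lay 451 bp from a par-6 start. Spindle orientation genes had 2 of 7, against the same 19.9% of coding genes. The higher of 2 peaks near starts of the centrosomal gene cnn ranked 206, and 237, 145 and 380 in the replicates. The other cnn peak ranked 302. The peak of loco, a regulator of G protein signalling, ranked 2187 and overlapped no peak of replicate 3.

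For each group that follows, the share over all coding genes was 19.9%. Kinases and phosphatases had 1 of 6, the PP4 subunit gene flfl at rank 793, whose peak was nearest to the start of omd. Peaks at ranks 1407 and 788 lay 198 bp from a start of aurA and 389 bp from a start of mts, and were assigned to the nearer starts of CG3281 and Rack1. Cargo and myosin genes also had 1, of 4, the myosin light chain gene sqh at rank 485. In the Notch group 2 of 3 had a peak. The receptor gene N (37.4 kb) held 2, the higher at rank 753, in an intron and nearest to the start of CG18508. The AP-2alpha peak ranked 1673, and its rank in replicate 2 was 4379, outside the top 3688. In the group listed under translational repression and growth, 2 of 4 had a peak. These were pum (171.3 kb) at rank 928 and wech at rank 3419, the latter in the top 3688 of no replicate. None of the 8 neuroblast and progenitor transcription factor genes examined, ase, wor, sna, esg, klu, erm, ham and btd, had an optimal peak, and their best pooled rank was 4776, at ham. Of these genes 5 are under 5 kb long, where 10.6% to 19% of coding genes had a peak. The other 3, klu, erm and ham, are at least 20 kb long, and 45.3% of coding genes of 20 to 40 kb had a peak. The count of 0 in 8 was not tested, and with so few genes it is not a result about them. The neuroblast factor dpn had none either.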

How the data were processed

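The 5 peak lists in dm6 coordinates were analysed: 1 per replicate, 1 from the pooled replicates and the optimal list thresholded by irreproducible discovery rate, per the text notes deposited with the libraries. The lists in dm3 coordinates were not used. Neither aligner nor peak caller is named by the sources used here. Each peak's signal value is a score deposited by the authors. Its scale is not stated, and only its order inside a list was used. The −log10 q value of each peak is the authors' and was only described. All 3688 optimal peaks were the highest 3688 of the pooled list, with signal values of 130.9 to 3256.3. No reads or totals were used, so depth is unknown, and no interval is given.

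Summits were annotated with BDGP 6.54 gene models (Ensembl release 115), protein-coding genes only, in Python 3.11.15 with pandas 2.3.3 and numpy 2.4.6. Coordinates are 1-based. A gene is read as holding a peak by the nearest start or body, which need not mean that it is regulated. An optimal peak counted as supported by a replicate when it overlapped by at least 1 bp one of that replicate's 3688 highest peaks. No record was identical between replicate lists. The build was checked by the splice sites of the members' introns, 87 of 89 of which began with GT and ended with AG. Of the 38 further genes, 37 were matched by symbol and 1 by synonym. The members, gene lists and motifs were chosen with earlier results of these data known, so no list was tested. All members, and each of the 38 with an optimal peak, were to be named. The nearest-start and overlap functions were checked against a direct search, at random positions and on a sample of the optimal peaks. Alternatives were the higher-ranked part of the optimal list (1844 peaks), support by all replicates, and support by both others with each replicate left out. Further ones were the whole pooled list, all annotated genes, distance and body limits, the peak midpoint, overlap rules and motif windows.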

Additional observations from a re-analysis of the deposited data

How the results depend on the processing

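Of 53 values recomputed under an alternative, 45 stayed within 1.5 times the reported one and 8 moved further. The 3 members nearest to an optimal peak became 9 in the whole pooled list, and 5 when a summit within 2 kb of the body also counted, which added pros and aPKC. The 4 members with a summit in the body became 10 in the whole pooled list and 2, brat and numb, when the summit had to lie within 500 bp of a start. The 12 further genes became 34 in the whole pooled list, 17 with bodies extended by 2 kb, and 8 in the 1844 highest peaks. They became 8 within 500 bp of a start, which added aurA, mts and par-6. Within 50 bp of the summit instead of 100 bp, CAGCTG and GAGAGAG were at 0 member peaks and TTTAAA at 1. The optimal peaks were also filtered for support by both other replicates, with each replicate left out of the filter in turn. The counts ranged from 3 to 3 (nearest start), 4 to 4 (body), 9 to 10 (further genes) and 5 to 6 (supported peaks). The optimal list was not remade, so the replicate left out still shaped its peaks. No gene could be gained, and a gene with a peak that all 3 replicates supported could not be lost. The counts of 3 and 4 were therefore fixed beforehand, and these settings are among the 45. When non-coding genes and transposable elements competed for the nearest start, baz was lost and 2 members stayed. No paired analysis was possible because the labels give 1 group.

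The depth of each library is unknown, no control was analysed here, and the scale of the signal value is not stated. With 3 replicates of 1 group, ranks show spread between libraries only. Nearest starts and gene bodies do not show which gene a peak acts on. Polr1D, mRpL40, sktl, omd, Hs6st and CG3081, among other genes, overlap or lie nearer to some peaks. The 6 optimal peaks are too few for shares of classes or motifs to be read. The members were chosen by name, and the 4 with an optimal peak are the 4 longest.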
